A study of Mus musculus with 24 samples.

Results

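The hepatic drug efflux transporters described here are 7 genes of the ATP-binding cassette (ABC) family: Abcc2, Abcc3, Abcc4, Abcc6, Abcg2, Abcb1a and Abcb4. They were chosen by gene symbol from the 15160 genes of the count table, with earlier results of these same mice known and without a record of which comparison entered the choice. Their values are therefore a description, and the adjusted p-values printed with them are those of the fit across all genes and not independent evidence. All 7 passed the filter on low counts, as did 13336 genes in total.

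Liver RNA of male mice on a C57BL/6 background was sequenced from the 3′ end of each transcript (QuantSeq), 1 library per mouse. WT mice were homozygous for a floxed Nfe2l2 gene, labelled NRF2fl/fl. NRF2 KO mice, labelled NRF2fl/(alb), were littermates that carried the same floxed alleles and 1 copy of Cre recombinase under the albumin promoter, which deletes exon 5 in albumin-expressing cells, so that other liver cells keep the gene. From 8 weeks of age each genotype received for 8 weeks a control diet (Con, 0.86% methionine) or a methionine-restricted diet (MR, 0.17% methionine), both without cysteine. The paper's 8-week experiment then had calorimetry and a return to home cages before tissue harvest, without naming the diet of that time. Livers were taken at 5 months after a fast of 4 h. The deposited set holds 6 mice per group. WT_CON_7604 and WT_MR_7612, which the study treated as outliers, were left out of the values given first, leaving 5 mice in each WT group and 6 in each NRF2 KO group, with 6197291 to 22068338 counts each.

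ABC efflux transporters use ATP to move drugs, conjugates, bile salts and lipids out of cells, and in hepatocytes they sit either in the canalicular membrane, which faces bile, or in the basolateral membrane, which faces blood. Their genes are known targets of xenobiotic-sensing factors, among them the pregnane X receptor (Nr1i2), the constitutive androstane receptor (Nr1i3), the farnesoid X receptor (Nr1h4), the aryl hydrocarbon receptor (Ahr) and NRF2, the product of Nfe2l2. NRF2 binds antioxidant response elements, and Abcc2, Abcc3 and Abcc4 are commonly listed among its targets in liver.

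RefSeq promoter windows, each running from 250 bases before to 50 bases after an annotated start on GRCm38.p6, were matched for 5 of the 7 genes, 8 windows in all. Those of Abcc4, Abcc2, Abcb1a and the annotated gene start of Abcg2 are shown because these are the members that changed with the diet in at least 1 genotype. Capitals mark matches to the antioxidant response element core TGACNNNGC or to the xenobiotic response element core GCGTG, either strand.
Abcc4, gene start, chr14:118706170-118706469, minus strand: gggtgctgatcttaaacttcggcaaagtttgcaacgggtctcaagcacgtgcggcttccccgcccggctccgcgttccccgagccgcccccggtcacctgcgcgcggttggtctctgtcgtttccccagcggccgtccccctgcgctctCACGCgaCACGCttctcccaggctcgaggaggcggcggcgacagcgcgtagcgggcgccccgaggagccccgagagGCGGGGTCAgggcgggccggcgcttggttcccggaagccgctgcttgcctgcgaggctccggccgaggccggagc
Abcc4, internal start, chr14:118676882-118677181, minus strand: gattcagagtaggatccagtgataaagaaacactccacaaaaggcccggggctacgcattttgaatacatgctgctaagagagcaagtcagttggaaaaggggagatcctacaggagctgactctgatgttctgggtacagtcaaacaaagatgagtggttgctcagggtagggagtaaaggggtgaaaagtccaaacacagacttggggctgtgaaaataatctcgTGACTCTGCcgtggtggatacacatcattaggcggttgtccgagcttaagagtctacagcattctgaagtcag
Abcc2, chr19:43782058-43782357, plus strand: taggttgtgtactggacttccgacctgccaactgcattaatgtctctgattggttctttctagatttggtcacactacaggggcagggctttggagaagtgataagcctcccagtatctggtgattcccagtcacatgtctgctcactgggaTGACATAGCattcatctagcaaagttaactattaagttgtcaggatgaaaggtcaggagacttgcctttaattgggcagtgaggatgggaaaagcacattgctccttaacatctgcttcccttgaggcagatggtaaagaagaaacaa
Abcb1a, chr5:8566841-8567140, plus strand: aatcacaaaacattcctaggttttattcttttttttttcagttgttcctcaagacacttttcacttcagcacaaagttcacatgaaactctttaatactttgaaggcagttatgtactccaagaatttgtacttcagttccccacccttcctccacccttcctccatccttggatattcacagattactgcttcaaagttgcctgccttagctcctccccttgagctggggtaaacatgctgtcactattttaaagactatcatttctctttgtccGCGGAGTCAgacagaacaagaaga
Abcg2, gene start, chr6:58584283-58584582, plus strand: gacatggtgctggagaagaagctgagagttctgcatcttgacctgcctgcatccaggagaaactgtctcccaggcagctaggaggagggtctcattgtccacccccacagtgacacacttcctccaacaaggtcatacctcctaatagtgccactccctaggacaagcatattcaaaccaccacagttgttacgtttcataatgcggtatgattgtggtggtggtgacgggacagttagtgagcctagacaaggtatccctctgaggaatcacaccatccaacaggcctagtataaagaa

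The antioxidant response element core was found in 4 of the 8 windows and in 12.4% of 32851 promoters of the same length. In the first Abcc4 window it lies on the reverse strand at bases 226 to 234, and in the second on the forward strand at bases 228 to 236. The Abcc2 window holds it at bases 153 to 161 and the Abcb1a window at bases 277 to 285, the latter 26 bases past the RefSeq start. GCGTG was found in 3 of the 8 windows (of Abcb4, Abcg2 and Abcc4) and in 32.4% of all promoters. The core TGATGNAA, bound by C/EBP-ATF dimers, was in none of the 8 and in 3.97% of all. The window at the Abcg2 gene start holds none of the 3 motifs. The GCGTG of Abcg2 lies at bases 270 to 274 of a window not printed here, at an internal start (chr6:58640296-58640595). A match describes these letters and shows no binding, and the start used in these livers was not measured.

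The genes span chr19:43782192-43840740 (Abcc2, plus strand), chr11:94343295-94392997 (Abcc3, minus), chr14:118482692-118706219 (Abcc4, minus), chr7:45967555-46030302 (Abcc6, minus) and chr6:58584523-58695676 (Abcg2, plus) on GRCm38 in GENCODE M21. Abcb1a (chr5:8660077-8748575) and Abcb4 (chr5:8893717-8959231) lie on the plus strand of chromosome 5, with the paralog Abcb1b (chr5:8798147-8866315) between them. The RefSeq start of Abcb1a lies 92986 bases before its GENCODE start, inside the neighbouring gene Rundc3b (chr5:8490334-8622952), which runs on the minus strand. No annotated gene covers the 3′ end of a member, where QuantSeq reads fall. Levels in CPM (counts scaled to the same library total after TMM normalization) are compared within a gene and not between genes.

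One library stood apart from its group. The library labelled WT_CON_7607 held 324 CPM of Nfe2l2, where the other 4 WT Con libraries held 106 to 125 CPM and NRF2 KO Con 228 to 339 CPM. Its Abcc3 level of 8.38 CPM also lay within the NRF2 KO Con range of 5.09 to 20.1 CPM. So did Abcc2 at 230 CPM (NRF2 KO Con 201 to 298, other WT Con 305 to 352 CPM). Abcg2 at 59.2 CPM lay there too (NRF2 KO Con 55.0 to 67.6, other WT Con 69.6 to 81.2 CPM). Abcc4 and Abcb1a lay within the ranges of both. Abcb4 at 649 CPM lay above the NRF2 KO Con range of 438 to 534 CPM, and Abcc6 at 19.6 CPM below that of 22.6 to 29.9 CPM. Nr1h4 also lay outside the NRF2 KO Con range. At 64.7 CPM, Nr1h4 was below the other WT Con libraries (67.6 to 87.4 CPM) and below NRF2 KO Con (96.7 to 122 CPM). Whether the label is wrong was not tested. This library stays in the WT Con values. Values without it stand beside each member's result whose call it changed or whose value it moved by over 1.5 times. The 3′ counts of Nfe2l2 were higher in NRF2 KO than in WT mice on both diets, by 0.83 on the log2 scale (SE 0.213, adjusted p = 0.045) on Con and 1.18 (SE 0.216, adjusted p = 0.0035) on MR by edgeR. The difference on Con without the library labelled WT_CON_7607 was 1.27 (SE 0.0991, adjusted p = 6.4e-09). These reads come from the end of the transcript and were not split by exon, so they do not measure the deletion.

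**Figure D1:**
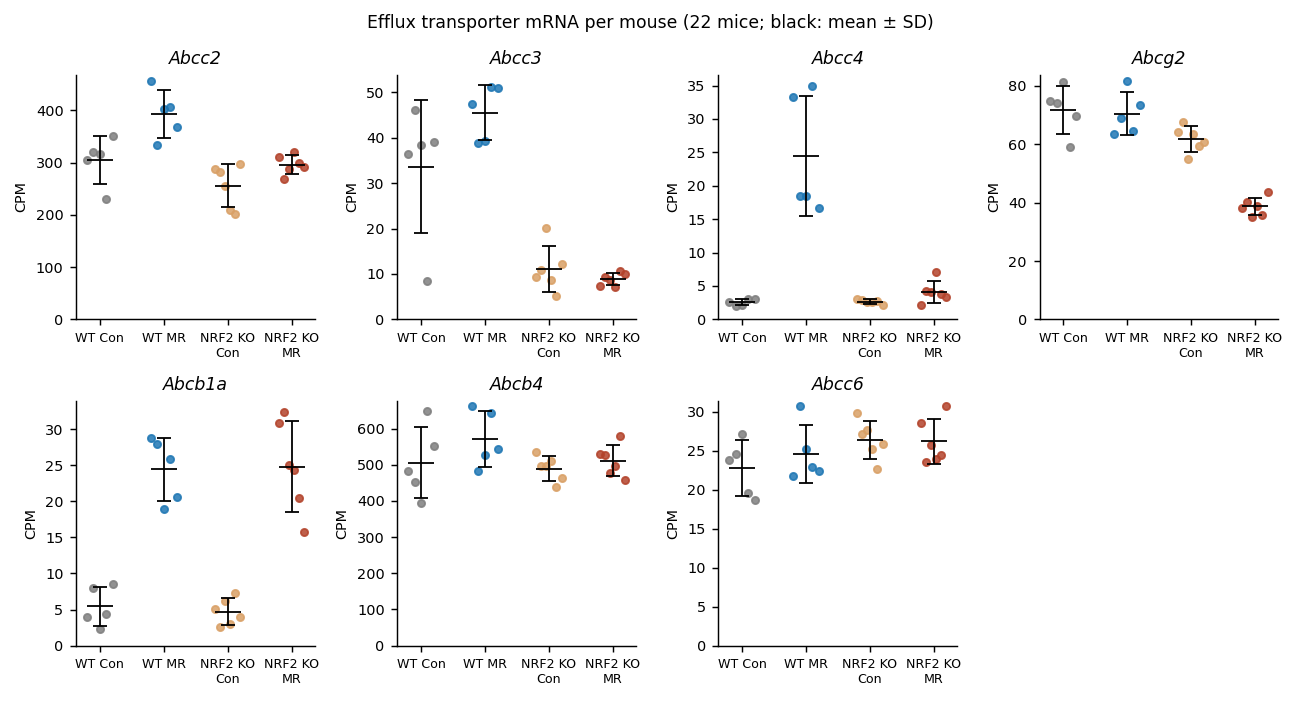
Level of each transporter in CPM (vertical axes, linear from 0) in every mouse of the 4 groups, 22 mice, with the mean and SD in black. Abcc4 stands high in WT MR (16.7 to 35.0 CPM) alone, Abcb1a in both MR groups, Abcg2 is lowest in NRF2 KO MR (35.2 to 43.5 CPM), and Abcc3 is low in both NRF2 KO groups.

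The diet effect in WT mice asks which transporters respond to methionine restriction when hepatocytes keep NRF2. Abcc4, Abcb1a and Abcc2 rose under MR, and the other 4 members did not pass the test. Of all genes tested, 13.8% were called in this comparison (922 higher and 921 lower) at a Benjamini-Hochberg adjusted p under 0.05 in the edgeR quasi-likelihood test.

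Abcc4 encodes MRP4, a basolateral exporter of conjugates, bile salts and nucleotides. Its 5 WT Con libraries held 2.05, 2.14, 2.56, 3.03 and 3.11 CPM, and the 5 WT MR libraries 16.7, 18.4, 18.5, 33.3 and 35.0 CPM. The groups did not overlap, and within WT MR 3 mice lay below 19 CPM and 2 above 33 CPM. The means were 2.58 ± 0.49 CPM (SD, n = 5) and 24.4 ± 8.96 CPM (SD, n = 5), a log2 fold change of 3.22 (SE 0.256, 9.29-fold, adjusted p = 3.7e-08). By p-value Abcc4 ranked 3 of all genes tested. The 95% interval of the log2 fold change ran from 2.69 to 3.75.

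Abcb1a encodes one of the mouse P-glycoproteins, a canalicular exporter of hydrophobic drugs. In WT Con mice it measured 2.35, 3.95, 4.41, 7.98 and 8.57 CPM and in WT MR mice 18.9, 20.6, 25.9, 27.9 and 28.8 CPM. The lowest MR mouse held more than the highest Con mouse. The log2 fold change was 2.16 (SE 0.306, 4.46-fold, adjusted p = 0.00014). Abcb1b, the neighbouring paralog, held at most 23 counts in any of the 22 mice, with group means of 0.308 to 0.625 CPM. How any reads shared between both genes were assigned is not given in the sources used here.

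Abcc2 encodes MRP2, the canalicular exporter of glutathione, glucuronide and bilirubin conjugates. Its WT Con levels were 230, 305, 316, 321 and 352 CPM and its WT MR levels 333, 369, 403, 406 and 456 CPM. The groups overlapped through the WT Con mouse at 352 CPM, and 4 of 5 MR mice lay above every Con mouse. The log2 fold change of 0.37 (SE 0.115, 1.29-fold, adjusted p = 0.034) was small. Without the library labelled WT_CON_7607, the lowest of its group, it was 0.29 (adjusted p = 0.094) and no longer passed the test.

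The other 4 members showed smaller differences, none of which passed the test. Abcc3, which encodes the basolateral conjugate exporter MRP3, measured 8.38, 36.3, 38.4, 39.0 and 46.2 CPM in WT Con and 38.9, 39.2, 47.5, 50.9 and 51.1 CPM in WT MR. Its log2 fold change was 0.43 (95% interval -0.24 to 1.10, adjusted p = 0.42), or 0.19 (adjusted p = 0.65) without the library labelled WT_CON_7607. Abcg2, which encodes the canalicular exporter BCRP, had a log2 fold change of -0.03 with a 95% interval of -0.20 to 0.15, from 71.8 ± 8.13 CPM (SD, n = 5) in WT Con to 70.5 ± 7.35 CPM (SD, n = 5) in WT MR. Abcb4, which flips phosphatidylcholine into bile, differed by 0.18 (adjusted p = 0.32) and Abcc6, a basolateral transporter whose loss causes ectopic mineralization, by 0.12 (adjusted p = 0.53). When the library labelled WT_CON_7607 was left out, Abcb4 differed by 0.285 (adjusted p = 0.081), Abcc6 by 0.08 (adjusted p = 0.74) and Abcg2 by -0.08 (adjusted p = 0.57), none of them called.

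In NRF2 KO mice the same diet comparison was made with the hepatocyte gene deleted. Abcb1a rose under MR and Abcg2 fell, and the other 5 members did not pass the test. The share of all genes called was 12.6%, with 831 higher and 846 lower. The split of calls depended on the scaling. When libraries were scaled by total counts only, the median of all genes shifted by 0.16 on the log2 scale in NRF2 KO and by 0.09 in WT mice, and the calls became 2397 higher and 388 lower in NRF2 KO and 1434 higher and 526 lower in WT.

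Abcb1a ran from 2.6 CPM (median 4.48) to 7.36 CPM in NRF2 KO Con and from 15.7 CPM (median 24.6) to 32.4 CPM in NRF2 KO MR. As in WT mice, the diet groups did not overlap. Its log2 fold change was 2.41 (SE 0.284, 5.30-fold, adjusted p = 2.7e-05). The diet effects of the 2 genotypes differed by 0.25 with a 95% interval of -0.61 to 1.11, and this difference did not pass the test (adjusted p = 0.93).

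Abcg2 ran from 55.0 CPM (median 62.2) to 67.6 CPM in NRF2 KO Con and from 35.2 CPM (median 38.6) to 43.5 CPM in NRF2 KO MR. All 6 MR mice were lower than the lowest Con mouse. The log2 fold change was -0.68 (SE 0.079, 0.626-fold, adjusted p = 7.3e-06), and Abcg2 ranked 13 of all genes by p-value.

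Abcc4 ran from 2.13 CPM (median 2.7) to 3.05 CPM in NRF2 KO Con and from 2.13 CPM (median 3.93) to 7.07 CPM in NRF2 KO MR. In 5 of 6 MR mice it lay above every Con mouse, and in the remaining mouse it was at the level of the lowest Con mouse. The log2 fold change of 0.62 (SE 0.246, 95% interval 0.11 to 1.13, adjusted p = 0.1) did not pass the test. Without KO_MR_7625, the lowest mouse, it was 0.76 (adjusted p = 0.038), and without KO_MR_7629, the highest at 7.07 CPM, it was 0.38 (adjusted p = 0.3). With scaling by total counts only it was 0.79 (adjusted p = 0.043), and over the alternatives other than omissions the adjusted p ran from 0.043 to 0.42. Abcc2 differed by 0.21 (adjusted p = 0.19), from 256 ± 41.4 to 296 ± 18.0 CPM (SD, n = 6 each), and was also called with scaling by total counts only (0.37, adjusted p = 0.015). Abcc3 differed by -0.33 (adjusted p = 0.56), Abcb4 by 0.06 (adjusted p = 0.74) and Abcc6 by -0.02 (adjusted p = 0.94).

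**Figure D2:**
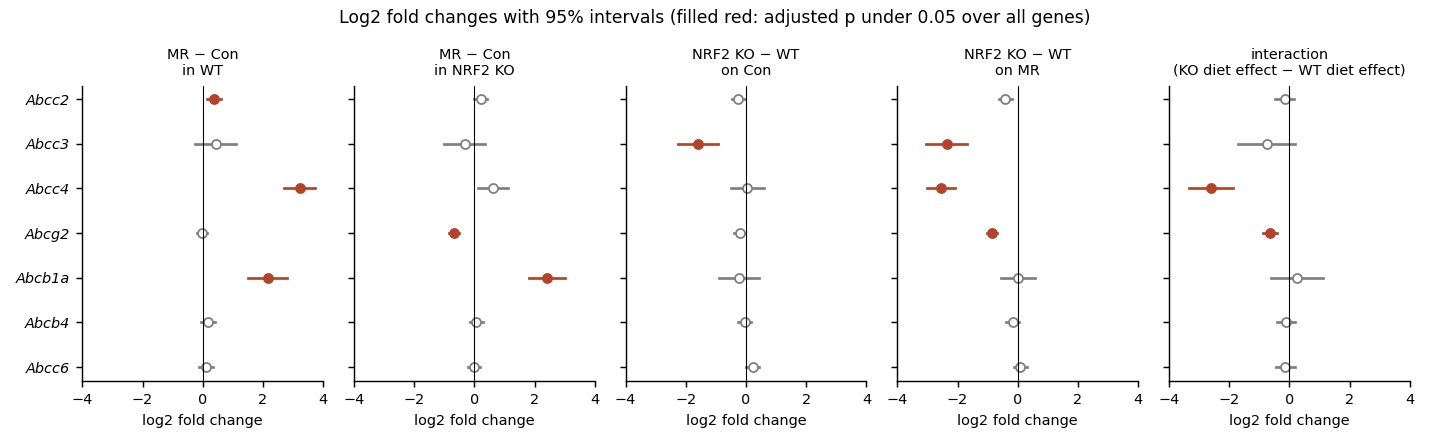
Log2 fold change (horizontal axis) of the 7 transporters with its 95% interval in the 5 comparisons, filled red where the adjusted p over all genes was under 0.05. Abcb1a lies above 2 in both diet comparisons, Abcc4 in WT only, and Abcc4 and Abcg2 are the called members of the interaction.

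On the Con diet, the comparison of NRF2 KO with WT mice called 1 member, Abcc3, where 2.07% of all genes were called. Abcc3 ran from 5.09 CPM (median 10.2) to 20.1 CPM in NRF2 KO Con, against 4 WT Con libraries at 36.3 to 46.2 CPM and the library labelled WT_CON_7607 at 8.38 CPM. The log2 fold change was -1.59 (SE 0.319, adjusted p = 0.0099). Without the library labelled WT_CON_7607 it was -1.84 (SE 0.219, adjusted p = 3.3e-05), and the WT Con mean rose from 33.6 ± 14.6 CPM (SD, n = 5) to 40.0 ± 4.34 CPM (SD, n = 4). When only these 2 groups were fitted, the adjusted p was 0.14 and the call was lost. The other 6 members did not pass the test, with log2 fold changes from -0.25 for Abcc2 to 0.22 for Abcc6. For Abcc4 the difference was 0.05 (95% interval -0.52 to 0.61). Without the library labelled WT_CON_7607 it was 0.10 (adjusted p = 0.93), and Abcb4 went from -0.05 to 0.06 (adjusted p = 0.87).

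On the MR diet, NRF2 KO mice had lower Abcc4, Abcg2 and Abcc3 than WT mice, and 1.93% of all genes were called. Abcc4 and Abcg2 ranked 1 and 2 of all genes by p-value. The log2 fold change of Abcc4 was -2.55 (SE 0.227, 0.171-fold, adjusted p = 6.2e-07), with 4.10 ± 1.64 CPM (SD, n = 6) in NRF2 KO MR and 24.4 ± 8.96 CPM in WT MR. For Abcg2 it was -0.87 (SE 0.0825, 0.549-fold, adjusted p = 6.2e-07), with 38.7 ± 3.06 CPM (SD, n = 6) against 70.5 ± 7.35 CPM. For Abcc3 it was -2.35 (SE 0.325, 0.196-fold, adjusted p = 0.00025), with 8.89 ± 1.39 CPM (SD, n = 6) against 45.5 ± 6.08 CPM (SD, n = 5). In each of these 3 genes every NRF2 KO MR mouse lay below every WT MR mouse. The share of all genes with groups separated in this way is not given here, for this or any other comparison.

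For Abcc2 too the groups did not overlap, with 269 to 320 CPM in the NRF2 KO MR mice and 333 to 456 CPM in the WT MR mice. Its log2 fold change of -0.41 (SE 0.11, adjusted p = 0.051) missed the threshold in the 22 mice. It passed with all 24 mice (-0.45, adjusted p = 0.024) and without the library labelled WT_CON_7607 (-0.41, adjusted p = 0.021). Abcb1a differed by 0.02 (95% interval -0.54 to 0.57), Abcb4 by -0.16 (adjusted p = 0.55) and Abcc6 by 0.08 (adjusted p = 0.82).

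The interaction, the diet effect in NRF2 KO minus that in WT mice, was called for Abcc4 and Abcg2, where 0.045% of all genes were called, 6 genes in total. For Abcc4 it was -2.60 on the log2 scale (SE 0.354, 95% interval -3.33 to -1.86, adjusted p = 0.002), and this gene ranked 1 by p-value. For Abcg2 it was -0.65 (SE 0.116, 95% interval -0.89 to -0.41, adjusted p = 0.023). The other 5 members did not pass the test. For Abcc3 the value was -0.76 with a wide 95% interval of -1.71 to 0.19 (adjusted p = 0.73), and for Abcc2 it was -0.16 (adjusted p = 0.87). Without the library labelled WT_CON_7607 the interaction was -0.52 for Abcc3 (adjusted p = 0.82) and -0.07 for Abcc2 (adjusted p = 0.96), and for Abcb4 it went from -0.11 to -0.22 (adjusted p = 0.82). The Abcg2 call had little margin, since leaving out any of WT_CON_7603, WT_MR_7611, WT_MR_7616, KO_CON_7617, KO_CON_7618, KO_MR_7625 or KO_MR_7628 raised its adjusted p to between 0.05 and 0.071. Over all 22 omissions its value stayed between -0.69 and -0.59.

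The Abcc4 result was computed again over all 24 libraries. On the scale of 24 mice, WT_CON_7604 held 7.34 CPM of Abcc4 (122 counts) and WT_MR_7612 held 93.5 CPM (2229 counts), each the highest of its group. With both, the group means were 3.39 ± 1.98 CPM in WT Con and 36.0 ± 29.3 CPM in WT MR (SD, n = 6 each). In NRF2 KO mice they were 2.68 ± 0.328 CPM on Con and 4.14 ± 1.66 CPM on MR (SD, n = 6 each). WT MR still did not overlap the other 3 groups. The WT diet effect was 3.41 (SE 0.416, adjusted p = 2.2e-05), the NRF2 KO diet effect 0.63 (adjusted p = 0.42), and the genotype difference on MR -3.13 (adjusted p = 6.3e-05). The genotype difference on Con turned from 0.05 to -0.34 and was uncalled in both (adjusted p = 0.97 and 0.76). The interaction was -2.78 with a larger standard error of 0.605 (adjusted p = 0.18), so its call was lost, while that of Abcg2 was kept (-0.64, adjusted p = 0.046). Adding back WT_MR_7612 alone gave -3.17 for Abcc4 (adjusted p = 0.065), and WT_CON_7604 alone -2.21 (adjusted p = 0.054). For Abcg2, WT_MR_7612 alone gave -0.61 (adjusted p = 0.065), so that its call was lost too. With WT_CON_7604 alone it was -0.68 (adjusted p = 0.021).

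WT_CON_7604 also held 17.6 CPM of Abcb1a, above the other WT Con mice at 2.37 to 8.65 CPM and below the lowest WT MR mouse at 19.0 CPM on this scale. It lay above the lowest NRF2 KO MR mouse, KO_MR_7632, at 15.7 CPM. With all 24 mice the WT diet effect on Abcb1a was 1.73 (SE 0.337, adjusted p = 0.0017).

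**Figure D3:**
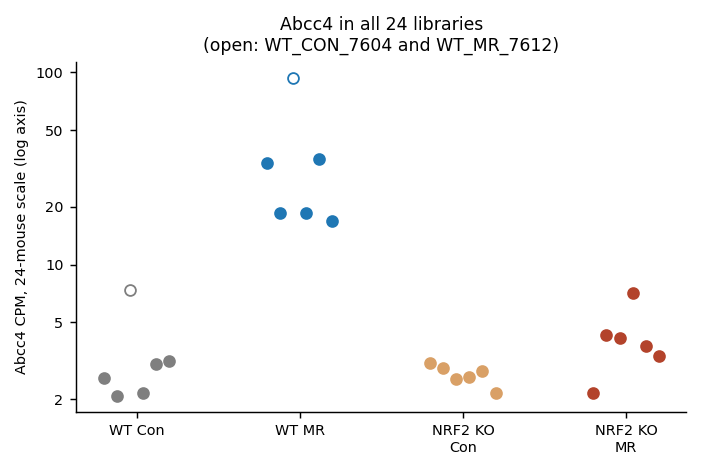
Abcc4 in CPM on the scale of 24 mice (vertical axis, logarithmic) in each library, with WT_CON_7604 and WT_MR_7612 as open circles. WT_MR_7612 at 93.5 CPM and WT_CON_7604 at 7.34 CPM top their groups, and all WT MR libraries lie above those of the other groups.

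By level, the groups ordered as follows. For Abcc4, WT MR stood above the other groups, which overlapped. For Abcc3, WT MR and WT Con overlapped, as did NRF2 KO Con and NRF2 KO MR, and both WT groups stood above both NRF2 KO groups apart from the library labelled WT_CON_7607. For Abcg2, WT Con, WT MR and NRF2 KO Con overlapped and NRF2 KO MR stood alone at the bottom. For Abcb1a, both MR groups overlapped each other above both Con groups. For Abcc2, WT MR stood highest and NRF2 KO Con lowest, and each group overlapped its neighbours in the order WT MR, WT Con, NRF2 KO MR and NRF2 KO Con. Abcb4, with group means from 489 to 572 CPM, and Abcc6, with 22.8 to 26.4 CPM, overlapped in every pair of groups compared.

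The rest of the ABC family gives the setting. Beside the 7 members, 34 Abca to Abcg symbols were listed and 33 tested. Under MR 5 of the 33 were called in WT mice, all higher, where 13.8% of all genes were called. The median log2 fold change of the 33 was 0.06 beside -0.01 for all genes. In NRF2 KO mice 5 were called, all higher, where 12.6% of all genes were called. The median there was 0.0037 beside -0.0042 for all genes. The highest of those called with at least 1 CPM on average were Abca8b, a lipid transporter relative, which rose by 0.82 in WT (adjusted p = 4.5e-05) and by 0.83 with NRF2 deleted (adjusted p = 1.4e-05), and Abcd4, a lysosomal cobalamin transporter, at 0.86 (adjusted p = 0.039) in NRF2 KO. Abcc5, an exporter of cyclic nucleotides, differed by 0.64 (adjusted p = 0.028) in WT. Between genotypes on Con, edgeR called 0 of the 33 (8 at an unadjusted p under 0.05), DESeq2 1 and limma 0. On MR 1 was higher (Abca3, 0.46, adjusted p = 0.011) and 1 lower, where 1.93% of all genes were called. In the interaction edgeR, DESeq2 and limma each called 0, with 1 at an unadjusted p under 0.05.

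**Figure D4:**
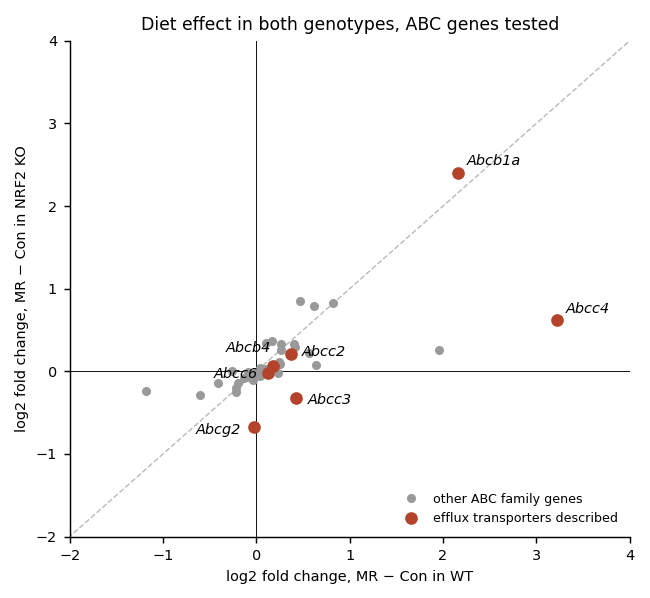
Diet effect as log2 fold change in WT (horizontal axis) against NRF2 KO mice (vertical axis) for the 40 ABC genes tested, the members in red, with a dashed line of equal effect. Abcb1a lies near the line at 2.16 and 2.41, Abcc4 far below it at 3.22 and 0.62, and Abcg2 below it at -0.03 and -0.68.

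Other transporters that hepatocytes use for export and uptake were listed from general knowledge. Of 14 other efflux genes tested, 4 were higher and 1 lower under MR in WT, and 2 were called in NRF2 KO mice, both higher. The shares of all genes called were 13.8% in WT and 12.6% in NRF2 KO mice. Slc51b, a subunit of the basolateral bile salt exporter, rose by 2.02 in WT (adjusted p = 0.0019) and by 2.71 with NRF2 deleted (adjusted p = 0.00012). Abcb11, the canalicular bile salt export pump, rose by 0.61 in WT (adjusted p = 0.0025) and by 0.80 with NRF2 deleted (adjusted p = 0.00012). Slc47a1, the cation exporter MATE1, fell by 0.64 on the log2 scale (adjusted p = 0.022) in WT. Between genotypes on Con, edgeR called 0 of the 14 (3 at an unadjusted p under 0.05), DESeq2 1 and limma 0. On MR 1 was lower by edgeR, where 1.93% of all genes were called.

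Of 13 uptake transporters, 1 was higher and 2 lower under MR in WT, and 1 higher and 4 lower in NRF2 KO mice. The shares of all genes called were 13.8% and 12.6%. The organic anion carrier Slco1a4 rose by 1.19 in WT (adjusted p = 0.0038) and by 0.90 in NRF2 KO (adjusted p = 0.013). Its relative Slco1a1 fell by 2.36 on the log2 scale in WT (adjusted p = 0.049, or 0.076 without the library labelled WT_CON_7607) and fell by 2.22 in NRF2 KO mice (adjusted p = 0.044). Slc22a7, an organic anion transporter, fell by 1.98 in WT (adjusted p = 0.013) and fell by 2.09 in NRF2 KO mice (adjusted p = 0.0036). Between genotypes on Con, edgeR, DESeq2 and limma each called 0 uptake genes, with 1 at an unadjusted p under 0.05.

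Of 9 genes tested that anchor or deliver canalicular proteins, 1 was higher and 1 lower under MR in WT and 2 were higher in NRF2 KO mice. The shares of all genes called were 13.8% and 12.6%. Vil1, which encodes the microvillus protein villin, rose by 3.18 in WT (adjusted p = 0.0012) and by 3.11 with NRF2 deleted (adjusted p = 0.00075). Msn (moesin) fell by 0.49 on the log2 scale in WT (adjusted p = 0.0086), and Myo5b, a motor of apical vesicles, rose by 0.31 in NRF2 KO (adjusted p = 0.045). Between genotypes edgeR, DESeq2 and limma each called 0 of the 9 on either diet, with 3 at an unadjusted p under 0.05 on Con and 0 on MR.

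Of 24 listed regulators of transporter genes, 2 were called under MR in WT, both higher, where 13.8% of all genes were called. In NRF2 KO mice 4 were higher and 1 lower, where 12.6% of all genes were called. Ahr rose by 0.75 in WT (adjusted p = 0.023) while its value in NRF2 KO mice was 0.17 (adjusted p = 0.62). Nr1i2 rose by 0.35 in NRF2 KO (adjusted p = 0.013) and had 0.26 (adjusted p = 0.089) in WT. Nr1i3 missed the threshold at 0.67 in WT (adjusted p = 0.058) and at 0.40 in NRF2 KO mice (adjusted p = 0.23). In the interaction edgeR, DESeq2 and limma each called 0 of the 24 regulators, with 2 at an unadjusted p under 0.05. Mafg, a small MAF partner of NRF2, rose by 0.59 in WT (adjusted p = 0.00042) and by 0.56 with NRF2 deleted (adjusted p = 0.00035), and Cebpa fell by 0.47 on the log2 scale in NRF2 KO (adjusted p = 0.0031). Between genotypes on Con, the log2 fold change of NRF2 KO against WT was 0.48 for Nr1h4 (adjusted p = 0.003) and -0.69 for Mafk (adjusted p = 0.0085). Nr1h4 was not called in the other comparisons, and Ppara, the fatty acid sensor, was called in none.

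A list of 29 commonly named NRF2 targets, none of them an ABC gene, was read beside the transporters. Under MR 20 were called in WT, all higher (median 0.83), and in NRF2 KO mice 13 were higher and 1 lower (median 0.49). In NRF2 KO against WT mice 13 were called on Con, all lower (median -0.64), and 20 on MR, all lower (median -1.16). The shares of all genes called were 13.8%, 12.6%, 2.07% and 1.93% in the same order. Slc7a11, the cystine importer, rose by 6.79 in WT and 3.48 in NRF2 KO mice. Cbr3, a carbonyl reductase, rose by 2.60 in WT, and its log2 fold change for NRF2 KO against WT on MR was -3.25. Gsta1, a glutathione transferase, was lower in NRF2 KO mice, with log2 fold changes of -4.62 on Con and -5.08 on MR. In the interaction edgeR called 0 of the 29 (9 at an unadjusted p under 0.05), DESeq2 1 and limma 0. Leaving out the library labelled WT_CON_7607, 15 of the targets were lower on Con and 21 on MR, and 1 was called in the interaction.

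The genes with levels most like each member over the 22 mice were found by Pearson's r of log2 CPM among 11997 genes with at least 1 CPM on average. The mice share groups, so these values mostly follow the group means and are given as description. For Abcc4 the most alike were Cbr3 (0.902), Slc35d1 (0.897) and Rpl23a (0.893). For Abcg2 they were Ugt2b1 (0.965), Aldh1a1 (0.91) and Mgst1 (0.91), and for Abcc3 the named genes were Gclc (0.927) and Ces1f (0.924). For Abcb1a they were Cyp3a59 (0.961), Slc51b (0.954) and the neighbouring gene Rundc3b (0.938), whose mean was 0.409 ± 0.229 CPM (SD, n = 5) in WT Con and 1.91 ± 0.469 CPM (SD, n = 5) in WT MR. The genes most like Abcb4 and Abcc6 were Slc4a4 (0.868) and Cmtm8 (0.838).

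After group means were subtracted, Abcb1a kept Slc51b among its 3 most alike (0.763), Abcb4 kept Slc4a4 (0.852) and Nmt2 (0.817), and Abcc6 kept Cmtm8 (0.868). The genes most like Abcc4, Abcg2, Abcc3 and Abcc2 were then Mustn1 (0.78), Serpina12 (0.848), Pbld2 (0.872) and Abcb9 (0.789). Between members the highest r after subtraction was that of Abcc2 and Abcc3 (0.638), both of which had their lowest WT Con level in the library labelled WT_CON_7607.

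The liver was checked by its cell markers. All 8 hepatocyte markers were listed, with summed levels of 83800 to 112000 CPM in WT Con, 74100 to 89900 in WT MR, 108000 to 127000 in NRF2 KO Con and 92500 to 114000 in NRF2 KO MR. The sum of the bile duct markers was lower under MR in both genotypes, though 4 of the 8 listed averaged under 1 CPM. The 8 of 9 listed, among them Sox9, Spp1 and Epcam, summed to 56.8 to 81.1 CPM in WT Con, 25.5 to 33.9 in WT MR, 39.3 to 60.0 in NRF2 KO Con and 26.4 to 35.4 in NRF2 KO MR. Of the 6 tested, 5 were lower under MR in WT (median log2 fold change -1.17) and 1 in NRF2 KO mice (median -0.247). The shares of all genes called were 13.8% and 12.6%. On Con 1 of the 6 was lower in NRF2 KO than in WT mice (median -0.496), where 2.07% of all genes were called. Kupffer cell markers (10 of 11 listed) summed to 448 to 584, 346 to 394, 375 to 562 and 330 to 444 CPM in the same order, with 6 and 3 of 10 lower under MR. Stellate cell markers (10 of 10) summed to 554 to 848, 466 to 589, 621 to 700 and 538 to 654 CPM, with 6 and 4 of 10 lower (4 in WT without the library labelled WT_CON_7607). Endothelial markers (12 of 12) summed to 463 to 584 CPM over all mice, with 1 of 12 higher under MR in NRF2 KO mice and, in WT mice, 0 called by edgeR, DESeq2 or limma and 0 at an unadjusted p under 0.05. The part of these cell types in the transporter levels was not tested. In bulk tissue fewer cells of a type and less RNA per cell cannot be told apart.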

How the data were processed

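RNA of 24 mouse livers was measured as QuantSeq 3′ libraries, 1 per mouse. The deposited count table gives whole reads per gene, from the Lexogen pipeline the authors ran on their reads. In the signal table, the authors scaled each library's counts by 1 DESeq2 size factor. The submitters' processing notes name GRCm38 (mm10), R 3.4.3 and DESeq2 1.18.1, and the aligner is not given in the sources used here. Annotation columns were used only for symbols.

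Raw counts were fitted in R 4.3.3 with edgeR 4.0.16 (TMM, filter by expression, robust quasi-likelihood) as 4 group means over 22 mice. The filter kept 13336 genes. Calls used a Benjamini-Hochberg adjusted p under 0.05 over all genes tested, and log2 CPM a prior count of 2. Intervals are 95% intervals from the standard error of the fit. Depth ran from 6197291 to 22068338 counts. The SD between mice holds both differences between mice and measurement noise, which 1 library per mouse cannot separate. Alternatives were DESeq2 size factors, library size only, no filter, limma 3.58.1 on the log2 of the deposited normalized signal (pseudocount 1), DESeq2 1.42.0, only the groups compared, all 24 mice and each mouse left out. Fits of 23 mice, with either of the left-out mice added back, were chosen after seeing the data, as was repeating the named genes and lists without WT_CON_7607. The fit was tested on simulated data.

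The members, lists and tests were chosen with earlier results of these data known. Named are the 7 members in every comparison, up to 3 of the largest called rises and falls of each list with at least 1 CPM on average, the regulators Nr1i2, Nr1i3, Nr1h4, Ppara, Ahr and Nfe2l2, and up to 3 genes most like each member. Some genes this rule names are not reported here. No other genes are given values, apart from the neighbour Abcb1b and the markers named. Library pairs of a group all differed beyond counting noise. Promoter windows are RefSeq's. Python 3.11.15 with matplotlib 3.10.9 drew the figures.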

Additional observations from a re-analysis of the deposited data

Results flagged for a closer look

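Among WT Con mice, the Abcc3 level of the library labelled WT_CON_7607 (8.38 CPM) stood far from the other 4, with a gap to the nearest of them of 0.737 of the group's whole range. It was the only one flagged of 28 groups of mice and genes looked at, where chance flags about 1 in 20. The diet effect differed between genotypes, by the interaction of the edgeR fit across all genes, for Abcc4 (-2.60 on the log2 scale, adjusted p = 0.002) and for Abcg2 (-0.65, adjusted p = 0.023).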

How the results depend on the processing

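No paired analysis was possible because the mouse numbers are not shared between groups. Of 1078 values of single transporters under alternatives, 1020 kept their direction and their side of the threshold, 18 lost and 13 gained a call, and 27 changed sign. Most of these values left out 1 mouse, often of a group not compared. An uncalled value that stayed uncalled counts as kept, so the 1020 says little about the calls. With library size only, 4 members (2 in the values given first) and 2785 genes (1677) were called for MR in NRF2 KO. DESeq2 called 444 genes (276) for NRF2 KO against WT on Con, 496 (258) on MR and 36 (6) in the interaction. Fits of only the groups compared called 99 genes and 0 members on Con, where Abcc3 lost its call, and 600 genes on MR. Adding back WT_CON_7604 gave 427 genes on Con and 1 member in the interaction, adding back WT_MR_7612 gave 1 gene and 0 members in the interaction, and all 24 mice gave 1 member there. The cause was not tested.

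Leaving out 1 mouse at a time moved the members called in WT between 2 and 3, in NRF2 KO between 2 and 3, between genotypes on MR between 3 and 4 and in the interaction between 1 and 2. Genes called ranged from 181 (without WT_CON_7603) to 314 on Con and from 3 (without WT_MR_7611) to 12 (without WT_CON_7607) in the interaction. Abcc2 lost its call for MR in WT without WT_CON_7602, WT_CON_7607, WT_MR_7609, WT_MR_7613 or WT_MR_7615 (adjusted p at most 0.096) and with only the groups compared (adjusted p = 0.068). On MR it gained a call between genotypes in 6 of 22 omissions, with DESeq2, and with only the groups compared.

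The changes of sign concerned uncalled values near 0. Abcg2 for MR in WT was 0.0744 with library size only, 0.0089 with WT_CON_7604 added and -0.0844 to 0.0198 over omissions. Abcc6 for MR in NRF2 KO was 0.139 with library size only and -0.0666 to 0.0291 over omissions. On Con, Abcc4 was -0.342 with all 24 mice or WT_CON_7604 added and -0.0281 to 0.137 over omissions, Abcb1a -0.446 to 0.0249 and Abcb4 -0.132 to 0.0579. On MR, Abcb1a was -0.00178 with limma, -0.0101 with all 24 mice, -0.00993 with WT_MR_7612 added and -0.0743 to 0.114 over omissions. In the interaction Abcb1a was -0.0127 to 0.461 over omissions, and Abcb4 0.0201 with all 24 mice and 0.00366 with WT_CON_7604 added. Abcc4 rested on 26 to 74 counts per Con mouse, which limits the precision of its Con levels.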
